A study of Mus musculus with 4 samples.

Results

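A set of 38 genes of ribosome biogenesis and of the Myc growth program was followed through serial passage of hair follicle mesenchymal cells. The genes were found by symbol in the deposited table of raw gene counts, where each of the 38 names matched 1 of 51826 rows. They were Myc itself, 34 genes whose products make, modify or assemble the ribosome, and the metabolic genes Odc1, Srm and Cad. All 38 exceeded the minimum mean count of 10 that left 16734 genes for comparison, and the lowest count of a member in a library was 133.

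RNA was sequenced from cultured dermal papilla cells (DPCs), which form the mesenchymal core of the hair bulb, and from dermal sheath cells (DSCs), which line the outside of the follicle. By the study's methods both came from the whisker (vibrissa) follicles of EGFP-transgenic C57BL/6J mice aged 5 to 6 weeks, DPCs as the outgrowth of plated papillae and DSCs as a suspension of collagenase-treated sheath, and the labels give the genotype as WT. Cells were grown in DMEM and collected at passage 3 (low passage) or passage 9 (high passage), which made a low-passage and a high-passage group of each cell type. Each group was 1 library, without replicates, and passage cannot be told apart from any difference in when the cultures or libraries were made.

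The libraries held between 34981284 and 47604059 counts. Levels below are CPM, counts as a share of the TMM-scaled library size, and are given for low and then high passage. A change is the log2 CPM at passage 9 minus that at passage 3, computed after a prior count of 2 was added. Each change carries a 95% counting interval (exact Clopper-Pearson), which covers counting error in a pair of libraries and says nothing of the spread between cultures. No p-value can be given for a single pair. Of the markers named for dermal papilla and sheath, Acta2 and Ncam1 were abundant in all libraries, Sox2 had 1677 and 1491 counts in DPCs and 269 and 178 in DSCs, and Alpl had at most 23 counts. The skeletal muscle genes Myod1, Myog, Pax7 and Ckm were at or under 3 counts in every library. So were Krt5, Krt14, Krt15, Krt1 and Cdh1 among the 8 keratinocyte markers, but the rest of these were not. Krt10 had 61 and 33 counts in DPCs and 53 and 58 in DSCs. Trp63 had 15 and 10 counts in DPCs and 15 and 35 in DSCs, and Epcam had 4 counts in DPCs at passage 9 only.

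A growing cell spends much of its transcription on ribosomes. RNA polymerase I transcribes the ribosomal RNA precursor in the nucleolus, small nucleolar ribonucleoproteins (snoRNPs) guide its chemical modification and cleavage, and a long series of assembly factors folds it with ribosomal proteins into the small and the large subunit. Myc is a transcription factor that pairs with Max, binds E-box sequences such as CACGTG, and is known for raising the expression of many of these factors together with enzymes of polyamine and nucleotide synthesis.

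Because the E-box is the sequence that Myc and Max recognize, the promoters of the members were searched for it. RefSeq promoters of 300 bases on GRCm38.p6, from 250 bases before to 50 bases after the transcription start, were found for 31 of the 38 members. Bop1, Fbl, Myc, Npm1, Rrp12, Rrs1 and Srm had no match. The hexamer CACGTG, which reads the same on both strands, was present for 7 of the 31 genes (22.6%), against 11.5% of the tested genes and 8.09% of all genes with a promoter in the table. The windows of 30 bases around it are printed 5′ to 3′ on the strand of the gene, with the hexamer in capitals, to show how little they share outside it.
Mybbp1a: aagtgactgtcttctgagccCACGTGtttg
Nle1: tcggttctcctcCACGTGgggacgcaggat
Nop2: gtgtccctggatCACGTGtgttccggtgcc
Pes1: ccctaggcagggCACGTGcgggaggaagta
Utp20: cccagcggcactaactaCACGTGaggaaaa
Utp4: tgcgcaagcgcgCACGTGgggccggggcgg
Wdr43: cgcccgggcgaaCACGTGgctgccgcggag

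Counting the first transcribed base as 1 and the base before it as -1, the hexamer began at 41 in Mybbp1a, 24 in Nle1, -60 in Nop2, 3 in Pes1, 38 in Utp20, 16 in Utp4 and 18 in Wdr43. Only that of Nop2 therefore lay upstream of the start. The windows are at chr11:72441347-72441376 (plus strand) for Mybbp1a, chr11:82908355-82908384 (minus) for Nle1, chr6:125131811-125131840 (plus) for Nop2, chr11:3963965-3963994 (plus) for Pes1, chr10:88826765-88826794 (minus) for Utp20, chr8:106893643-106893672 (plus) for Utp4 and chr17:71616220-71616249 (plus) for Wdr43. Other short motifs were counted on both strands in the same promoters. CACGCG was present for 10 of the 31 members (32.3%) and 19.5% of the tested genes, GGGCGG for 24 members (77.4%) and 67.5%, and TATAAA for 3 members (9.68%) and 8.89%. These are matches of letters and not sites shown to be bound.

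The main comparison asked how the members differed between passage 3 and passage 9. Most members were lower at high passage in both cell types. In DPCs 33 of the 38 were lower, where 48.5% of all tested genes were, and in DSCs 37 were lower, where 49.8% were. In both cell types at once 32 members were lower (34.4% of tested genes) and 0 were higher (36.1%), while 6 had opposite signs (29.5%). The median change of the members was -0.47 in DPCs and -0.47 in DSCs, while that of all tested genes was 0.03 and 0.00. Among tested genes with a mean count of at least 1000, the level of most members, the medians were 0.00 and -0.01.

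**Figure D1:**
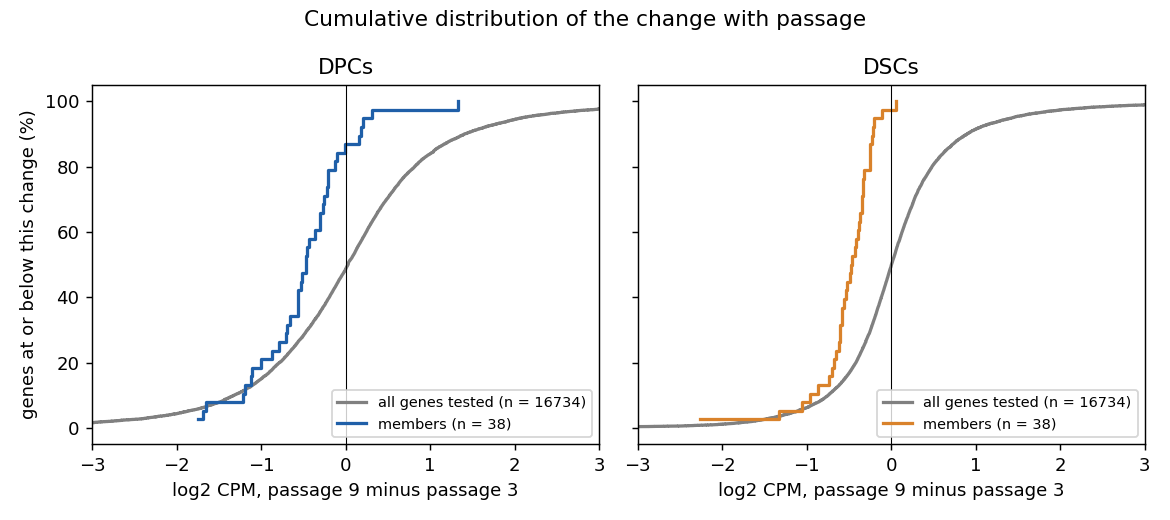
Cumulative share of genes (vertical axis, percent) at or below a given change in log2 CPM from passage 3 to passage 9 (horizontal axis) in DPCs (left) and DSCs (right), for the 38 members (coloured) and all 16734 tested genes (grey). The member curves cross the middle near -0.47 in both cell types and the grey curves near 0, while the far left tails are filled by other genes.

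The shift was moderate in size and shared by many members. The counting interval lay below 0 for 30 members in DPCs (37.8% of tested genes) and for 36 in DSCs (32.9%), and for 29 in both (22.2%). Members at least 2-fold lower numbered 8 in DPCs, namely Myc, Npm3, Fbl, Nhp2, Rrp9, Noc2l, Srm and Cad, where 15% of tested genes passed. In DSCs they were Rrp1b, Noc2l and Wdr74, 3 of 38 (6.21%), of which only Noc2l passed in both cell types (3.54%). At 4-fold, the size of change that the study used as its threshold, 0 members were lower in DPCs (4.36%) and 1, Wdr74, in DSCs (1.16%). The share of members past 2-fold was thus 21.1% in DPCs and 7.89% in DSCs, while the share lower at any size was 86.8% and 97.4%. Low counts widen the spread of the tested genes, and among those with a mean count of at least 1000 the members past 2-fold were 7 of 29 in DPCs (9.84% of such genes) and 1 of 29 in DSCs (2.04%).

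**Figure D2:**
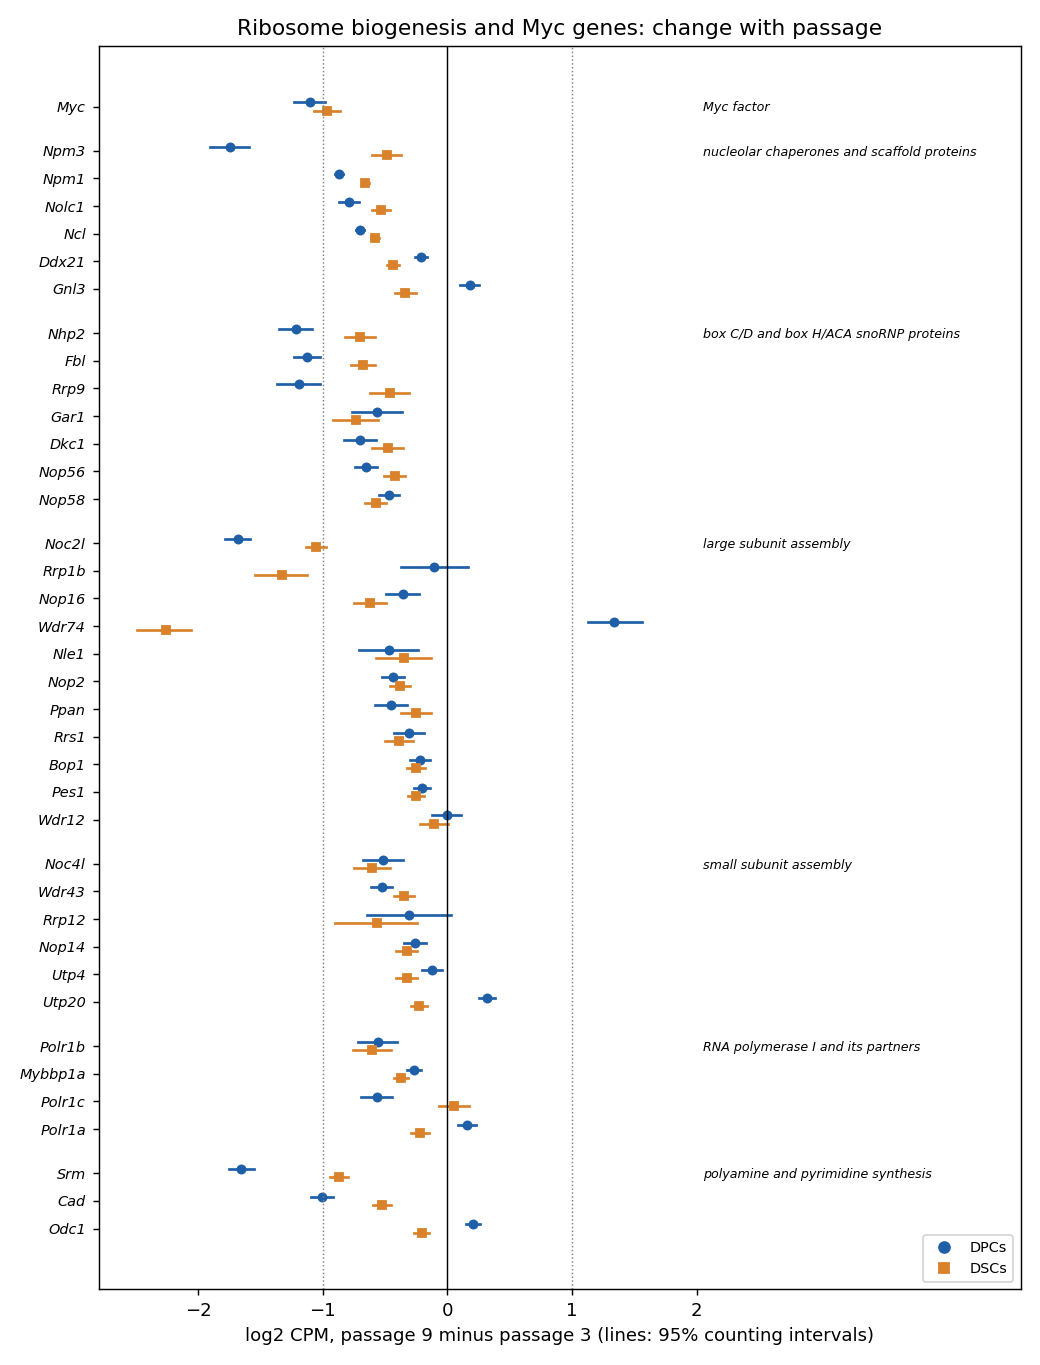
Change in log2 CPM from passage 3 to passage 9 for each member, grouped by role, in DPCs (blue circles) and DSCs (orange squares). Horizontal lines are 95% counting intervals, and dotted lines mark a 2-fold change. Most symbols sit between -1 and 0, with Wdr74 at 1.33 and -2.26.

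Levels in the libraries themselves showed the same ordering. For 31 members both passage 3 libraries were above both passage 9 libraries in CPM (27.2% of tested genes), and for 0 the reverse held (27.5%). The highest of the 4 libraries was low-passage DPCs for 24 members (27.3% of tested genes), low-passage DSCs for 10 (19%), high-passage DPCs for 4 (34.4%) and high-passage DSCs for 0 (19.3%). The lowest was high-passage DPCs for 21 members (34%) and high-passage DSCs for 17 (17.6%). Summed over the members, the level was 3419 CPM in low-passage DPCs and 2402 in high-passage DPCs, and 3232 and 2281 in DSCs. A lower share of RNA can come from less of it in each cell or from fewer cells that make it, and these cannot be told apart in bulk samples.

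**Figure D3:**
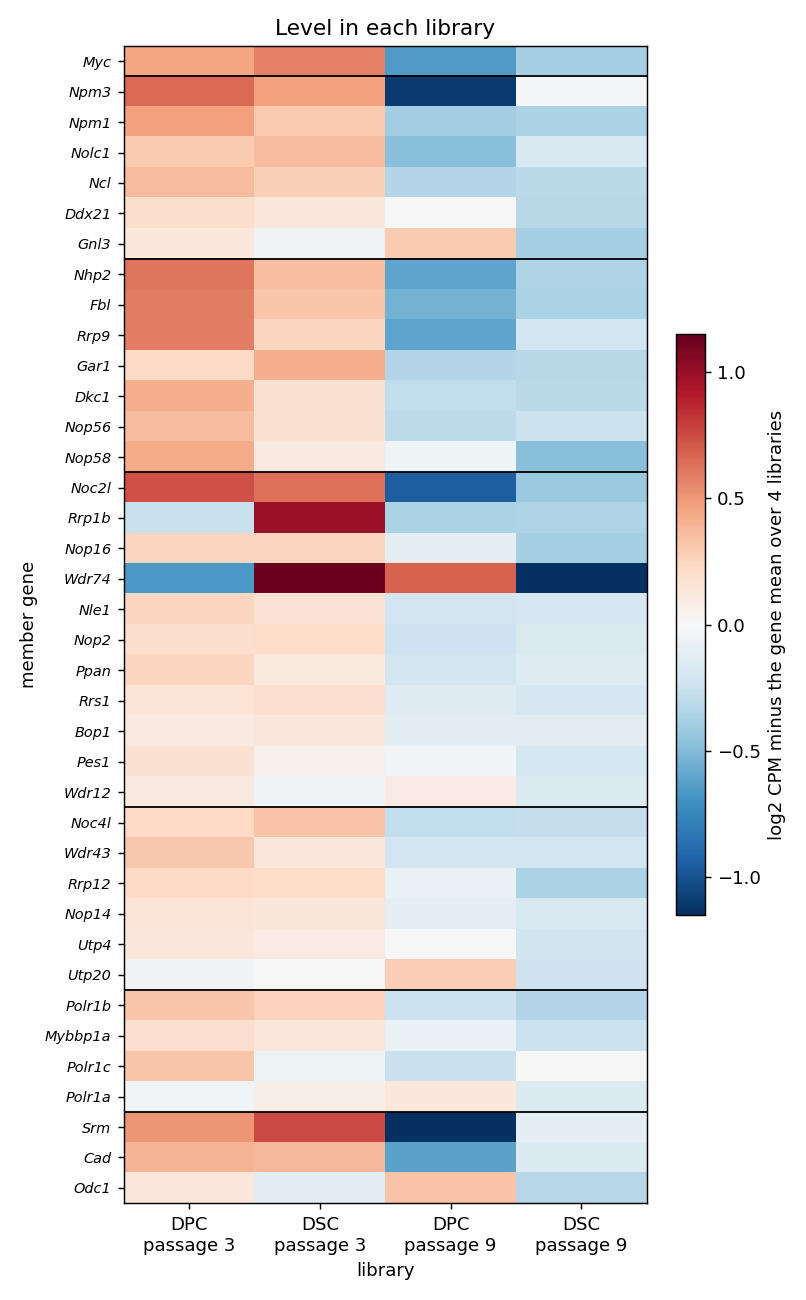
Level of each member in each library as log2 CPM minus the mean of that gene over the 4 libraries (colour, red above and blue below the mean), with members in rows by role and separated by black lines. The passage 3 columns are red for most rows, and Gnl3, Utp20, Polr1a and Odc1 are highest in high-passage DPCs.

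Myc (ENSMUSG00000022346, chr15:61985391-61990374 on GRCm38, plus strand) had 46.9 CPM in low-passage DPCs and 21.8 in high-passage DPCs. In DSCs it had 51.2 CPM at low passage and 26.2 at high passage. Each low-passage library was above each high-passage library, and DPCs and DSCs were close to each other within a passage. Myc was 2.15-fold lower in DPCs, a change of -1.11 (-1.23 to -0.98), and 1.95-fold lower in DSCs, a change of -0.96 (-1.07 to -0.86).

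Among the nucleolar chaperones and scaffold proteins, 5 of 6 were lower in DPCs and 6 of 6 in DSCs, with medians of -0.75 and -0.51. Each role holds few genes, and its counts stand against the 48.5% and 49.8% of tested genes that were lower. Ncl, nucleolin, which binds the ribosomal RNA precursor, had 582 and 357 CPM in low-passage and high-passage DPCs and 546 and 365 CPM in DSCs. Npm1, nucleophosmin, an abundant histone and ribosome chaperone, had 602 and 329 CPM in DPCs and 534 and 338 CPM in DSCs. These were the most abundant members by counts. The change of Ncl was -0.70 in DPCs and -0.58 in DSCs, and that of Npm1 -0.87 and -0.66.

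Npm3 (ENSMUSG00000056209, chr19:45747734-45749591), a smaller relative of nucleophosmin, had 39.4 CPM in low-passage DPCs and 11.7 in high-passage DPCs. In DSCs it had 34.9 and 24.9 CPM. High-passage DPCs stood apart from the other libraries, and the change was -1.74 (-1.91 to -1.59) in DPCs and -0.49 (-0.60 to -0.37) in DSCs. Nolc1, a chaperone of snoRNPs, changed by -0.79 and -0.53, and the RNA helicase Ddx21, which links polymerase I transcription with processing, by -0.21 and -0.43. Npm1 and Npm3 share 24.3% and 25.6% of their 50-base windows with other annotated genes, for the most part pseudogenes, so their counts depend on how shared reads were assigned. The same limit holds for Fbl (19.7%), Nop56 (18.6%) and Pes1 (23.3%).

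Gnl3 (nucleostemin, chr14:31012434-31019089), a nucleolar GTPase of stem and tumor cells, went the other way in DPCs. It had 69.1 CPM in low-passage and 78.2 CPM in high-passage DPCs, and 62.0 and 49.0 CPM in DSCs. Its highest library was thus high-passage DPCs and its lowest high-passage DSCs, and the change was 0.18 (0.10 to 0.26) in DPCs and -0.34 (-0.42 to -0.26) in DSCs.

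The proteins of the snoRNPs were lower without exception, 7 of 7 in each cell type, against 48.5% and 49.8% of tested genes. Their medians were -0.70 in DPCs and -0.58 in DSCs. Box C/D particles methylate ribosomal RNA, and their methyltransferase Fbl (fibrillarin, chr7:28169710-28179269) had 64.6 CPM in low-passage and 29.6 CPM in high-passage DPCs. In DSCs Fbl had 53.7 and 33.6 CPM. Both low-passage libraries were above both high-passage libraries, and Fbl was 2.18-fold lower in DPCs and 1.60-fold lower in DSCs. The core proteins Nop56 and Nop58 changed by -0.66 and -0.47 in DPCs and by -0.42 and -0.58 in DSCs. Rrp9 (chr9:106475963-106485424), a protein of the U3 particle that guides early cleavage, had 24.6 and 10.8 CPM in DPCs and 19.4 and 14.1 CPM in DSCs, a change of -1.19 (-1.37 to -1.02) and -0.46 (-0.62 to -0.31).

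Box H/ACA particles convert uridines to pseudouridine. Their core protein Nhp2 (chr11:51619735-51623714) had 41.5 CPM in low-passage and 17.9 CPM in high-passage DPCs, and 34.7 and 21.3 CPM in DSCs. It was 2.32-fold lower in DPCs and 1.63-fold lower in DSCs. The catalytic subunit Dkc1 (dyskerin) changed by -0.70 and -0.48 and Gar1 by -0.56 and -0.73, so that all the H/ACA proteins listed were lower in both cell types. In the deposited FPKM, which scale by transcript length, the change in DPCs was smaller for Gar1 (-0.16) and larger for Nop58 (-1.04, with a pseudocount of 0.1).

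The factors that assemble the large subunit had smaller differences, with medians of -0.31 in DPCs and -0.38 in DSCs over 11 genes. Noc2l, Rrp1b and Wdr74 were past 2-fold in at least 1 cell type. Noc2l (ENSMUSG00000095567, chr4:156236010-156247616), which escorts early large subunit particles, was so in both. It had 94.1 CPM in low-passage and 29.3 CPM in high-passage DPCs, and 87.2 and 42.0 CPM in DSCs. The low-passage library was the higher in each cell type, with a change of -1.68 (-1.79 to -1.58) in DPCs and -1.05 (-1.13 to -0.97) in DSCs. Of the exonic bases of Noc2l, 20.9% are also covered by Samd11 on the opposite strand, but Samd11 had at most 11 counts in a library.

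The PeBoW complex, made of Pes1, Bop1 and Wdr12, is needed to process the large subunit RNA. Pes1 changed by -0.21 in DPCs and by -0.25 in DSCs. The values of Bop1 were -0.22 and -0.25. Wdr12 had 35.1 and 34.9 CPM in DPCs and 31.7 and 29.4 CPM in DSCs, and its intervals, -0.12 to 0.11 and -0.22 to 0.00, reached 0 in both. In the FPKM the Wdr12 value in DPCs was -0.46. Nop2, a methyltransferase of large subunit RNA, changed by -0.44 and -0.38, Rrs1, which recruits the 5S particle, by -0.31 and -0.39, and Nop16 by -0.36 and -0.62. Ppan changed by -0.45 and -0.25 and Nle1 by -0.47 and -0.35.

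Rrp1b (chr17:32036100-32062865), a nucleolar protein of large subunit processing, differed between the deposited measures. By counts it had 6.63 and 6.16 CPM in DPCs and 15.6 and 6.21 CPM in DSCs, so that low-passage DSCs alone were high. Its change was -0.11 (-0.38 to 0.16) in DPCs and -1.33 (-1.54 to -1.13) in DSCs. The FPKM of Rrp1b in the same order were 4.74, 5.23, 5.44 and 4.99, which gives 0.14 in DPCs and -0.12 in DSCs. The difference in DSCs was therefore present in the counts and not in the FPKM, and the cause was not tested.

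Wdr74 (ENSMUSG00000042729, chr19:8735827-8740624, plus strand), which takes part in the maturation of the large subunit particle, was the only member that differed by at least 2-fold in opposite directions. Its counts were 249 and 615 in DPCs at passages 3 and 9 and 883 and 220 in DSCs, a change of 1.33 (1.13 to 1.56) and -2.26 (-2.49 to -2.06). Its span overlaps that of Gm45736 (chr19:8735841-8741223) on the same strand, a gene that is not in the GENCODE M21 annotation. The counts of Gm45736 were 670 and 4 in DPCs and 0 and 579 in DSCs. Where Wdr74 was high Gm45736 was near 0, and where Wdr74 was low Gm45736 was high.

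Added together both genes came to 919 and 619 counts in DPCs and 883 and 799 counts in DSCs. Wdr74 held 27.1% and then 99.4% of this sum in DPCs, and all of it and then 27.5% in DSCs. The sum was lower at high passage in both cell types, with a change of -0.53 in DPCs (-0.68 to -0.39) and of -0.41 in DSCs (-0.55 to -0.27). Whether reads of one transcript were assigned to different genes in different libraries was not tested. Without Wdr74 the medians of the remaining 37 members were -0.47 and -0.46, and 2 members rather than 3 were at least 2-fold lower in DSCs.

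**Figure D4:**
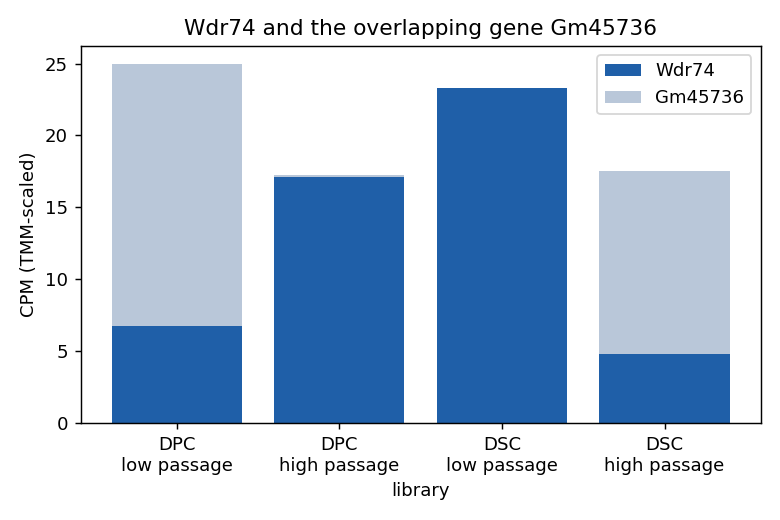
TMM-scaled CPM (vertical axis, from 0) of Wdr74 (dark) and the overlapping gene Gm45736 (light) stacked for each library. Wdr74 alone goes from 6.77 to 17.1 CPM in DPCs and from 23.3 to 4.83 CPM in DSCs, while the stacked totals of high passage are 17.2 and 17.5 CPM, below those of low passage.

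The factors of the small subunit also had modest differences, with medians of -0.28 and -0.34. In DPCs 5 of 6 were lower (48.5% of tested genes) and in DSCs 6 of 6 (49.8%). Noc4l changed by -0.51 and -0.60 and its partner Nop14 by -0.26 and -0.33. Wdr43 and Utp4, subunits of the early processome, changed by -0.53 and -0.12 in DPCs and by -0.35 and -0.33 in DSCs. Rrp12, which serves late maturation and export, had the lowest FPKM of the members, between 0.601 and 0.979, and its interval in DPCs (-0.65 to 0.03) reached 0.

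Utp20 (chr10:88746607-88826804), a large scaffold of the small subunit processome, had 100.4 CPM in low-passage and 125.1 CPM in high-passage DPCs, and 102.7 and 87.6 CPM in DSCs. As for Gnl3, the high-passage libraries were the highest and the lowest of the 4. The change was 0.32 (0.25 to 0.38) in DPCs and -0.23 (-0.29 to -0.17) in DSCs.

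Of the RNA polymerase I genes, the catalytic subunits differed from each other in DPCs. Polr1b (chr2:129100995-129126594) had 22.3 and 15.1 CPM in DPCs and 21.4 and 14.1 CPM in DSCs, a change of -0.56 (-0.72 to -0.40) and -0.60 (-0.76 to -0.45). Polr1a (chr6:71909053-71984935), which encodes the largest subunit, had 79.6 and 88.9 CPM in DPCs and 85.3 and 73.1 CPM in DSCs, a change of 0.16 (0.09 to 0.23) and -0.22 (-0.29 to -0.15). Polr1c, a subunit shared with RNA polymerase III, had 35.1 and 23.7 CPM in DPCs and 27.2 and 28.1 CPM in DSCs. Low-passage DPCs were the high library for Polr1c, which was the only member with a positive change in DSCs, 0.05 (-0.07 to 0.17). Mybbp1a, a nucleolar regulator of polymerase I and of Myb, changed by -0.27 and -0.37.

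The metabolic members were split in DPCs. Srm (ENSMUSG00000006442, chr4:148591503-148594993), spermidine synthase, had 92.4 CPM in low-passage and 29.3 CPM in high-passage DPCs, and 109.9 and 60.1 CPM in DSCs. Both low-passage libraries were above both high-passage libraries, and Srm was 3.15-fold lower in DPCs, a change of -1.65 (-1.76 to -1.56), and 1.83-fold lower in DSCs, a change of -0.87 (-0.94 to -0.80). Odc1 (chr12:17544794-17551505), the ornithine decarboxylase that opens the polyamine pathway, had 135.8 and 156.6 CPM in DPCs and 115.0 and 99.5 CPM in DSCs. Odc1 was thus not lower in high-passage DPCs, with a change of 0.20 (0.15 to 0.26), and changed by -0.21 (-0.27 to -0.15) in DSCs. Odc1 shares 24.3% of its windows with other genes.

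Cad (chr5:31054780-31078479), the enzyme that starts pyrimidine synthesis, had 89.3 and 44.4 CPM in DPCs and 88.1 and 61.1 CPM in DSCs. It was 2.01-fold lower in DPCs and 1.44-fold lower in DSCs. The order of the cell types depended on the measure, since the FPKM gave -0.56 in DPCs and -0.91 in DSCs.

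The members with the E-box hexamer were not those with the larger differences. Among the 7 members with CACGTG the median change was -0.27 for DPCs and -0.35 for DSCs, and among the 24 members whose promoters lacked it -0.54 and -0.51. Of the latter, the 8 with CACGCG had medians of -0.51 and -0.48, and the 16 with neither -0.54 and -0.51. In DPCs the changes ranged from -0.53 to 0.32 with CACGTG and from -1.74 to 1.33 without it. The 1.33 is that of Wdr74 without the counts of Gm45736. The members with no promoter in the table include Myc, Srm and Fbl, which were among the lower ones. These values describe a 300-base window, and whether Myc acts through it was not tested.

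The spread of changes among the members was compared between the cell types. The change was lower in DPCs than in DSCs for 18 of the 38 members (50.6% of tested genes), so neither cell type had the larger change throughout. Across the 38 members the changes in DPCs and DSCs correlated with r = -0.08 (Pearson) and rho = 0.51 (Spearman). Without Wdr74 these were 0.51 and 0.63 over 37 members, against 0.47 and 0.52 over all tested genes. The points are genes of the same libraries and not independent. In DPCs the change also went with the log2 of gene length, taken as the union of annotated exons, so that shorter genes tended to be lower. There r was 0.34 and rho 0.38 over 38 members, and 0.52 and 0.46 over 37 without Wdr74. Over the tested genes with a length they were 0.11 and 0.14. In DSCs they were 0.25 and 0.33 over 38 members, 0.16 and 0.28 over 37, and 0.03 and 0.06 over tested genes. When the median change of tested genes of like length was subtracted, the median of the members was -0.51 in DPCs and -0.47 in DSCs. Under that subtraction Gnl3 and Polr1a in DPCs were -0.01 and -0.10 instead of positive, and Polr1c in DSCs was -0.02.

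Passage had a further readout in the additive model, which fits cell type and passage to all 4 libraries. Its single residual degree of freedom is the difference between the responses of DPCs and DSCs, and not the spread between cultures. By edgeR's quasi-likelihood test with Benjamini-Hochberg adjustment over 16734 genes, 0 of the members and 0% of tested genes passed an adjusted p of 0.05, and the smallest adjusted p of a member was 0.19, for Noc2l. At an unadjusted p under 0.05, 10 members were lower (7.79% of tested genes) and 0 were higher (9.07%). The 10 were Myc, Npm1, Npm3, Fbl, Nhp2, Rrp9, Nolc1, Noc2l, Srm and Cad. In the same model, the Wald test of DESeq2 called 3 members lower at an adjusted p under 0.05, namely Myc, Noc2l and Srm (2.71% of tested genes).

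DPCs and DSCs were also compared within a passage, which does not measure the spread between cultures. At passage 3, 26 members were higher in DPCs (50.2% of tested genes) with a median difference of 0.07, and at passage 9, 17 were higher (49.1%) with a median of -0.01. The snoRNP proteins were 0.26 higher in low-passage DPCs than in low-passage DSCs in the median, and -0.05 at passage 9. At passage 3, the members at least 2-fold lower in DPCs were Rrp1b and Wdr74 (7.86% of tested genes). For Rrp1b this held in the counts only, since its FPKM were 4.74 in DPCs and 5.44 in DSCs. At passage 9, Npm3 (-1.08, -1.25 to -0.92) and Srm (-1.03, -1.14 to -0.93) were at least 2-fold lower in DPCs (11%) and Wdr74 was 3.52-fold higher (9.11%). With the counts of Gm45736 added, the Wdr74 differences were 0.10 at passage 3 and -0.02 at passage 9.

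Other genes of the pathway were taken from lists of textbook function. The median over 127 further ribosome biogenesis genes was -0.21 for DPCs and -0.20 for DSCs, between those of the 38 members and of all tested genes. Of the 127, 93 were lower in DPCs (73.2%, against 48.5% of tested genes) and 100 in DSCs (78.7%, against 49.8%), and 79 were lower and 13 higher in both, where 34.4% and 36.1% of tested genes were. At least 2-fold lower were 8 of them in DPCs (6.3%, against 15%) and 0 in DSCs (against 6.21%).

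By list, the medians in DPCs and DSCs were -0.30 and -0.21 for 12 other polymerase I genes, -0.23 and -0.18 for 46 other small subunit factors, -0.15 and -0.20 for 47 other large subunit factors, and -0.18 and -0.27 for 9 other snoRNP assembly genes. The 13 genes of the RNA exosome, which trims ribosomal RNA, differed more between cell types, with -0.63 in DPCs and 0.05 in DSCs. Polr1e, a polymerase I subunit, changed by -1.38 and -0.79, Tcof1 (treacle) by -0.28 and -0.87, and Ubtf, the factor that binds ribosomal DNA, by -0.36 and -0.57. Taf1c changed by 0.62 and -0.20 and Twistnb by -0.15 and 0.20.

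Among other small subunit factors, Lyar, Rcl1 and Aatf had the lowest mean of the DPC and DSC changes. They changed by -0.99, -0.66 and -0.67 in DPCs and by -0.37, -0.45 and -0.41 in DSCs. Krr1 stood out in the other direction, with 614 and 1438 counts in DPCs and 1379 and 2037 in DSCs, a change of 1.26 and 0.30. Esf1 and Ddx47 were also higher, by 0.56 and 0.43 in DPCs and 0.19 and 0.08 in DSCs. Of the large subunit factors, Mrto4 had 1197 and 229 counts in DPCs and 883 and 600 in DSCs, a change of -2.34 and -0.82. Nol9 changed by -1.50 and -0.73 and Tex10 by -1.13 and -0.41, while Zfp622, Ddx24 and Efl1 were higher in DPCs by 0.65, 0.85 and 0.43, with 0.28, 0.01 and -0.02 in DSCs. In the exosome, Exosc8 changed by -1.20 and -0.99, Exosc3 by -0.94 and -0.54 and Dis3 by -0.88 and -0.58. Exosc2 changed by 0.26 and 0.05 and Exosc4 by 0.04 and 0.24. In DSCs 7 of the 13 exosome genes were higher (53.8%), near the 50.2% of tested genes.

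Ribosomal proteins, which these factors join to the ribosomal RNA, had unlike medians in the cell types. The 80 tested cytosolic ribosomal protein genes had a median of -1.16 in DPCs and -0.26 in DSCs, and 51 were at least 2-fold lower in DPCs (63.8%, against 15% of tested genes) and 1 in DSCs (1.25%, against 6.21%). Rps20 and Rpl24 were among those with the lowest mean of both changes, with -1.88 and -2.25 in DPCs and -0.58 and -0.17 in DSCs, and no gene of the list with a mean count of at least 100 had a positive mean. Their summed level was 43444 and 20287 CPM in DPCs and 34850 and 28484 CPM in DSCs. Many ribosomal protein genes have pseudogenes that share reads with them. The 78 mitochondrial ribosomal protein genes had medians of -0.31 and -0.16. Mrpl20 changed by -1.51 and -0.68, Mrps15 by -0.86 and -1.09 and Mrpl58 by -1.16 and -0.64, while Mrps34 was higher by 0.39 and 0.29, Mrps31 by 0.51 and 0.03 and Mrps25 by 0.11 and 0.37.

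**Figure D5:**
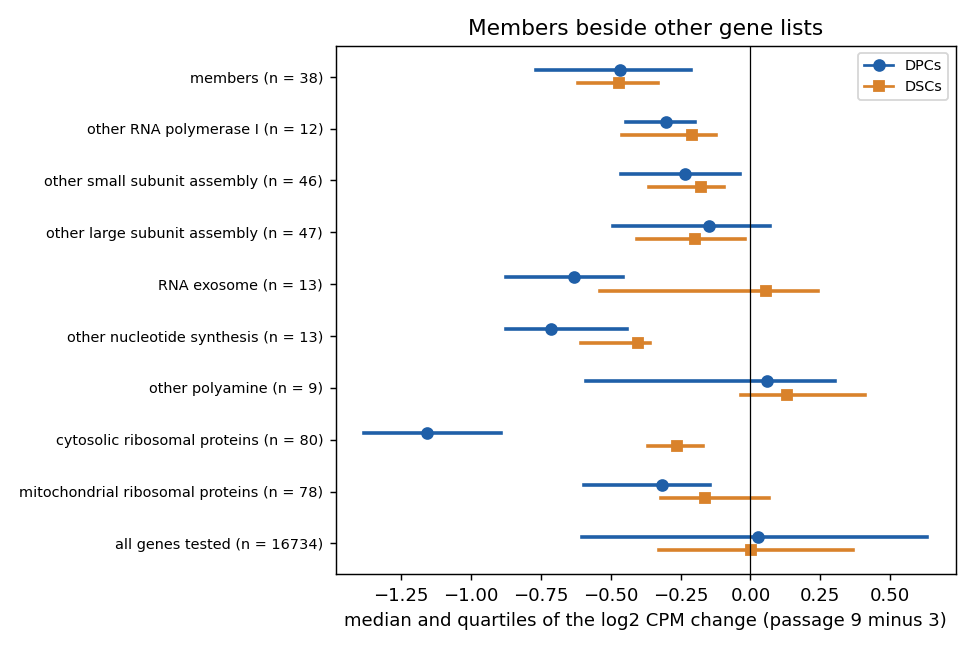
Median (symbol) and quartiles (line) of the change in log2 CPM from passage 3 to passage 9 over the genes of each list, in DPCs (blue circles) and DSCs (orange squares), with the number of tested genes. The members lie at -0.47 in both, the cytosolic ribosomal proteins at -1.16 and -0.26, and all tested genes near 0.

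The partners and antagonists of Myc differed among themselves. Max, the partner that Myc needs to bind DNA, had 78.6 and 74.3 CPM in DPCs and 69.9 and 66.1 CPM in DSCs, a change of -0.08 in each. Of the Mxd proteins, which compete with Myc for Max, Mxd3 changed by -2.63 and -1.75 on 225, 34, 206 and 72 counts, Mxd4 by -0.70 and -0.13, and Mxd1 by 0.15 and 0.29. Mxi1, another of these repressors, had 896 and 2152 counts in DPCs and 977 and 1970 counts in DSCs, and its change was positive in both cell types, with 0.75 in DSCs.

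The Myc relative Mycl had 796 and 82 counts in DPCs and 264 and 182 counts in DSCs, a change of -3.21 and -0.79. Mycn had 0 and 4 counts in DPCs and 18 and 56 counts in DSCs. Mnt changed by 0.13 and -0.04, Mga by 0.14 and -0.08, Mlx by -0.05 and -0.54 and Mlxip by 0.09 and 0.25, and Mlxipl was under the minimum count. The 11 tested factors had medians of 0.09 and -0.08.

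Enzymes of nucleotide synthesis other than Cad were lower in both cell types for 12 of 13 genes (92.3%, against 34.4% of tested genes). Their medians were -0.71 and -0.40. Umps, which completes pyrimidine synthesis, changed by -1.18 and -1.31, Impdh2, which makes guanine nucleotides, by -1.36 and -0.58, and Gart, a purine enzyme, by -0.99 and -0.61. The 9 other polyamine genes had medians of 0.06 and 0.13, with 2 lower in both cell types (22.2%, against 34.4% of tested genes).

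Markers of proliferation were lower at high passage, as the members were. All 19 had more than 3 counts in every library, and their summed level was 1280 CPM in low-passage and 356 CPM in high-passage DPCs, and 1090 and 502 CPM in DSCs. Of the markers of other cell types, some were lower and some higher. Of 5 immune markers 4 had more than 3 counts in each library, with sums of 21.2 and 9.03 CPM in DPCs and 32.9 and 13.96 CPM in DSCs, and Cd3e was at or under 3 counts. The 4 endothelial markers summed to 2.42 and 0.112 CPM in DPCs and 5.49 and 0.987 CPM in DSCs, the 4 Schwann cell markers to 7.31 and 3.65 and to 13.7 and 5.09 CPM, and the 7 fibroblast markers to 17300.4 and 6398 and to 25405 and 22779 CPM. The 5 melanocyte markers summed to 0.462 and 1.00 CPM in DPCs and 0.870 and 1.03 in DSCs, with only 1 above 3 counts in each library, and the 8 keratinocyte markers to 2.07 and 1.31 and to 1.79 and 2.04 CPM. The 8 dermal papilla and sheath markers went from 7394 to 2056 CPM in DPCs and from 6187 to 4741 CPM in DSCs. The part of all these markers in the member values was not tested.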

How the data were processed

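The authors deposited raw gene counts, which are whole numbers and not normalized, in 1 table with a column per library, and FPKM per library, scaled for transcript length and depth. The labels name an Illumina TruSeq kit and the study's methods a NEBNext kit with poly-T selection and paired-end sequencing. The submitters' processing notes list Bowtie 0.12.2 and the builds mm8 and mm9 without saying what each was used for, while the deposited positions of 33 of the 38 members are identical to those of GENCODE M21 on GRCm38. The counting program and its use of strand are not given in the sources used here.

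Counts were scaled by TMM (edgeR 4.0.16, R 4.3.3, limma 3.58.1), and genes averaging at least 10 raw counts were kept. Changes are log2 CPM differences with a prior count of 2. Intervals are 95% Clopper-Pearson intervals of one library's share of the counts of a pair. The additive model used edgeR's quasi-likelihood test, with DESeq2 1.42.0 as the alternative. FPKM changes used a pseudocount of 0.1 or 1. Scripts were tested on simulated data.

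All members and all Myc network factors are named, with up to 3 falls and 3 rises by the mean of the DPC and DSC changes in each pathway list of 10 or more genes, ribosomal proteins included and marker lists not, among genes with a mean count of at least 100. A ribosomal protein gene that this rule selects is not reported here. The members and lists were chosen with earlier results of these data known. Leaving out Wdr74, adding Gm45736 to it and subtracting length bins were chosen after seeing the data. Intervals cover counting error only, and if both mates of a pair were counted they are too narrow.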

Additional observations from a re-analysis of the deposited data

Results flagged for a closer look

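Of the 38 members, 5 (13.2%) had changes of opposite sign in DPCs and DSCs with counting intervals on opposite sides of 0. That share was near the 11.6% of tested genes and below the 17.4% of those with a mean count of at least 1000. The genes are therefore listed singly, and their number is not a trait of the set. The difference itself, the change in DPCs minus that in DSCs, was not tested, since each group had 1 library. It was 0.52 for Gnl3, 0.55 for Utp20, 0.38 for Polr1a and 0.41 for Odc1, each higher in high-passage DPCs and lower in high-passage DSCs. For Wdr74 it was 3.59, and with the counts of the overlapping gene Gm45736 added both changes were negative.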

How the results depend on the processing

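The members' median change stayed between -0.51 and -0.44 in DPCs and between -0.50 and -0.38 in DSCs under other scalings, prior counts, count minimums, FPKM, halved counts, and the changes to Wdr74 and to length. Of 1044 values of single members, 7 changed sign. With length bins subtracted these were Gnl3 (-0.0076) and Polr1a (-0.10) in DPCs and Polr1c (-0.02) in DSCs, and with Gm45736 added Wdr74 in DPCs (-0.53). In DPCs Rrp1b was 0.14 and 0.12 by FPKM with a pseudocount of 0.1 and 1, and Wdr12 was 0.02 with a mean count of at least 100. With a mean count of at least 1000, 1 of 29 members was at least 2-fold lower in DSCs. With total counts, the passage 3 median of DPCs minus DSCs was 0.16, where that of all genes was 0.09. The passage 9 median lay between -0.03 and 0.10, with no stable sign. The DESeq2 Wald test called 3 members, and edgeR called 0 under each setting run. The additive model compares the passages within each cell type, and no replicate numbers could pair the libraries further. With 1 culture per group, the spread between cultures is unknown.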
